A study of Mus musculus with 21 samples.

Results

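Ion channel genes were examined as the set of all genes on the array whose symbol begins with Kcn (potassium channels), Scn (sodium channels), Clcn (CLC chloride channels and transporters) or Cacn (calcium channels). The members were chosen by symbol alone, and a subset by measured level. The set held 131 of the 19057 genes with a symbol: 88 Kcn, 14 Scn, 6 Clcn and 23 Cacn genes. The level, 7.0 on the deposited log2 scale, was applied to the highest of 7 group means of each gene's brightest probe. Of the 131 genes 19 exceeded it, fewer than the 30 the rule asked for, so all 131 were described and the other 112 were marked as dim. The symbol rule is wider than voltage gating. It takes in inward rectifiers (Kcnj), two-pore leak channels (Kcnk), epithelial sodium channels (Scnn1), intracellular CLC exchangers and the receptor-associated TARPs among the Cacng genes. It also takes in 2 noncoding RNAs (Kcnq1ot1 and Kcnmb4os1) and 2 genes that encode no channel subunit (Scnm1, a splicing factor, and Kcnrg, a regulator of potassium channels). The main calcium pore of skeletal muscle (Cacna1s), its sodium channel gene Scn4a, and Clcn5 were not analysed here.

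C2C12, a line of mouse myoblasts whose cells fuse to multinucleated fibres in low serum, gave the RNA for 21 Illumina bead arrays in 7 groups of 3. Lentiviral lines carrying an shRNA against NET39 (annotated as Plpp7), against TMEM38A, WFS1 or TMEM214, or a control shRNA, were selected with puromycin and differentiated to day 6 (knockdown, KD, and control shRNA MTs). Untransduced myotubes (MTs) were taken at day 6 and untransduced myoblasts (MBs) at day 0, before differentiation. All 6 MT groups were grown in 2% horse serum, received 1 µM tetrodotoxin, a blocker of voltage-gated sodium channels, and were enriched by partial trypsinisation, while MBs were not, so differentiation and these treatments cannot be told apart. The labels call the control a non-target shRNA where a file header says empty, and which it carried is not settled. Each shRNA is 1 line, and target loss cannot be told apart from other properties of that line. TMEM38A encodes TRIC-A, itself an intracellular cation channel, WFS1 an ER membrane protein, and NET39 and TMEM214 further transmembrane proteins of the nuclear envelope and ER.

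In skeletal muscle a sodium channel carries the action potential along the surface and into the T-tubules, where a voltage-gated calcium channel acts mainly as the voltage sensor that opens the ryanodine receptor of the sarcoplasmic reticulum. That sensor is a complex of a pore subunit (Cacna1s) with β1 (Cacnb1), α2δ1 (Cacna2d1) and γ1 (Cacng1). Inward rectifier potassium channels and the chloride channel Clcn1 hold the resting potential. During the formation of myotubes from myoblasts, the resting potential becomes more negative and the sensor complex is assembled.

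The 15 shRNA arrays were brighter, at mean scanner intensities of 300.8 to 532.7, than the 6 untransduced ones, at 172.3 to 289.4, so lentiviral transduction and whatever set the brightness of those arrays cannot be told apart. Values below are normalized log2 intensities unless stated otherwise. On this scale the background level of an array lay between 6.01 and 6.11, and an offset of 50 compresses the changes of dim genes. Calls, over 13548 genes tested with limma, needed a log2 ratio larger than 0.5 in either direction and an adjusted p under 0.05, and values after ± are the SE of a log2 ratio. Groups of 3 arrays often did not overlap: for 41.1% of all genes tested in myogenesis and 34.1% in transduction. The shares were 39%, 39.9%, 39.7% and 41.6% in NET39, TMEM38A, WFS1 and TMEM214 KD MTs against the control, and 35.6% to 51.1% between lines. The study's methods describe the 3 arrays of a group as biological replicates. How they were grown is not in the labels, and the p-values speak only to the variation among these arrays. MB replicate 1 stood apart: 647 of the 13548 genes lay over 1 log2 from the mean of the other 2 MB arrays, against 19 between those. Of the 87 channel genes tested 0 did, but 68 of them were dim and so compressed, and smaller shifts are not counted. Tmem38a, Wfs1, Plpp7 and Tmem214 were each called lower in their own KD line, with log2 ratios of -4.45, -4.17, -1.79 and -1.17. Other targets were called lower too: Plpp7 (-1.15), Wfs1 (-1.09) and Tmem38a (-0.60) in TMEM214 KD MTs and Wfs1 (-0.73) in TMEM38A KD MTs.

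Most channel genes were near background in these cells. Of 131 genes, 87 were above it in at least 3 of 21 arrays and could be tested (all 19 over the level and 68 dim ones), 44 dim genes were not tested, and 22 were above background in 0 arrays. By the same filter 13548 of all 19057 genes with a symbol could be tested, so being near background is not particular to channel genes. Of 35 voltage-gated potassium channel α subunit genes 3 exceeded 7.0 (Kcnc1, Kcnf1 and Kcnh6), and of 9 calcium channel pore genes 0 did. The brightest gene was Cacng1, with a highest group mean of 11.554 in MTs on the deposited scale, ahead of Cacna2d1 (10.043 in TMEM38A KD MTs) and Cacnb1 (9.5313 in control shRNA MTs). Of the 19 genes 7 exceeded 7.0 in all 7 groups (Cacna2d1, Cacng1, Clcn3, Clcn7, Kcnf1, Kcnk5 and Scnm1), 11 in 2 to 6 groups and 1 in 1 group (Kcnmb4, in MBs). Those 12 passed partly through the groups where they were high, so counts over the 19 describe them and support nothing. Just inside the level lay Clcn2 (7.0362), Kcnmb4 (7.0531) and Kcnk13 (7.1041), and just outside it Kcnj2 (6.9717), the noncoding Kcnq1ot1 (6.9272) and Cacnb4 (6.8645).

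**Figure D1:**
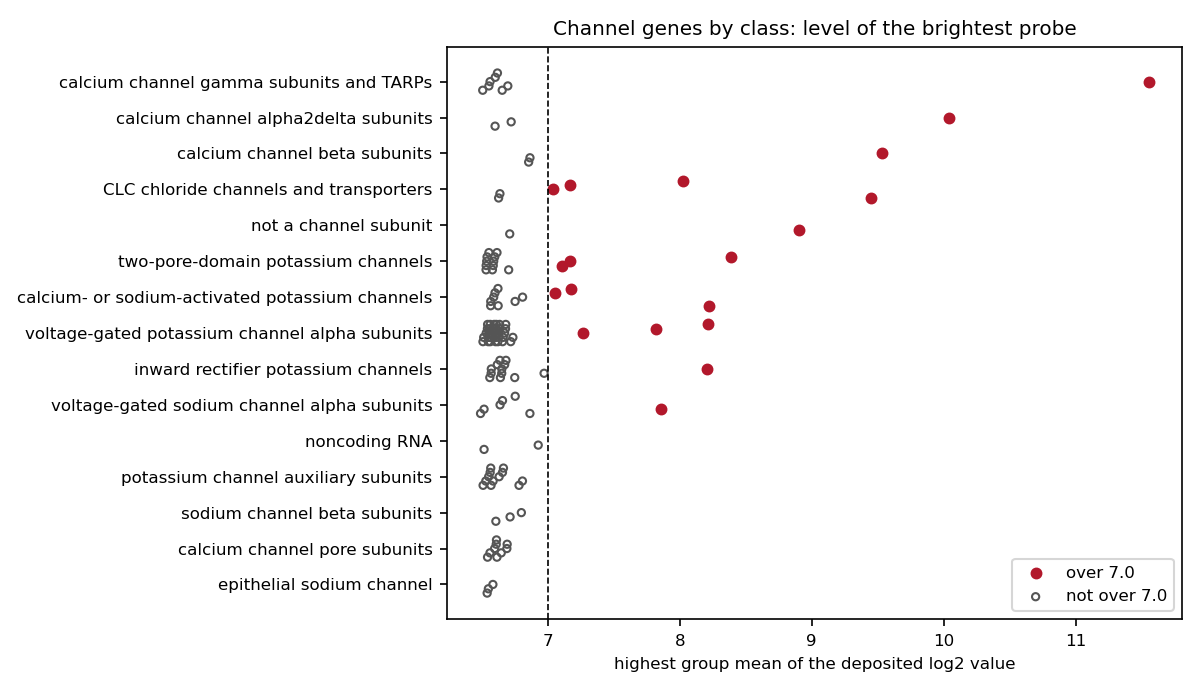
Each point is 1 of the 131 channel genes, placed by the highest of its 7 group means on the deposited log2 scale (x axis) and by its class (rows). Filled points are the 19 genes over the dashed line at 7.0, and the 3 brightest are the accessory calcium channel subunit genes Cacng1, Cacna2d1 and Cacnb1.

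RefSeq lists promoter windows (250 bases before to 50 after a transcription start, build GRCm38.p6) for 17 of the 19 genes, 25 windows in all. 5 windows of 4 genes that changed in myogenesis are shown because these genes define the 2 directions of change: Cacnb1, Kcnj12 and Kcnc1 were higher in MTs and Kcnn4 was lower. Capitals mark E-boxes (CANNTG, its own reverse complement, so both strands are covered), the motif bound by the myogenic bHLH factors and by many other bHLH proteins.
Cacnb1 upstream start (chr11:98022578-98022877, minus strand): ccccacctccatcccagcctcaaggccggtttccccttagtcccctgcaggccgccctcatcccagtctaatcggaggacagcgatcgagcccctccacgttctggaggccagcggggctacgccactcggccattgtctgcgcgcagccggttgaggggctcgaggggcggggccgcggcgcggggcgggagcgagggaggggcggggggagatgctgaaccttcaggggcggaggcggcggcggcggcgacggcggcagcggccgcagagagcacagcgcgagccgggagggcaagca
Cacnb1 downstream start (chr11:98018323-98018622, minus strand): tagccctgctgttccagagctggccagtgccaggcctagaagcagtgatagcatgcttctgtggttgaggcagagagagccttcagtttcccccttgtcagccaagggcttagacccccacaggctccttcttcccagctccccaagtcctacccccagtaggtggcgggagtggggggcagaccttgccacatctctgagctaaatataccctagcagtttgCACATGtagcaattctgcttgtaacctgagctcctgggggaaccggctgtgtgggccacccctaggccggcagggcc
Kcnj12 (chr11:61065554-61065853, plus strand): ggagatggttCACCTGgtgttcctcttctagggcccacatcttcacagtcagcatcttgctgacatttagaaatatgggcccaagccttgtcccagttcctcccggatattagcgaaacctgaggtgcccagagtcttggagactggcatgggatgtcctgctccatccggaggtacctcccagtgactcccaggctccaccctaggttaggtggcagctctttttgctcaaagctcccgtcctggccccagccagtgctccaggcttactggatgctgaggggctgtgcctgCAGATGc
Kcnc1 (chr7:46396218-46396517, plus strand): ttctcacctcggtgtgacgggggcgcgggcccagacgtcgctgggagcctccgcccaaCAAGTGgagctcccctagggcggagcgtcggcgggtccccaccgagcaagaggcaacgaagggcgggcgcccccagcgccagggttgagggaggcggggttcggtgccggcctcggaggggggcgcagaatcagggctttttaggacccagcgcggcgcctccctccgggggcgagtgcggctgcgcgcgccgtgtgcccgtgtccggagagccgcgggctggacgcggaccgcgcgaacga
Kcnn4 (chr7:24370013-24370312, plus strand): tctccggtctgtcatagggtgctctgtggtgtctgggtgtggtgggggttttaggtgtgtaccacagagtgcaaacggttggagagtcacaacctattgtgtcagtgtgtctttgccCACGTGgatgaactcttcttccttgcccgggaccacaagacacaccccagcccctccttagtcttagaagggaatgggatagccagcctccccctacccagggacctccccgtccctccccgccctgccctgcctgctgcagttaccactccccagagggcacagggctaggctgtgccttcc

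An E-box stood in 20 of these 25 windows (80.0%), against 72.3% of all 32851 windows of this length in the table, and its CAGCTG form (also its own reverse complement and a subset of CANNTG) in 4 of 25, against 16.3%. The Kcnn4 window, of a gene that was lower in MTs, held 1 E-box (CACGTG), the Kcnj12 window 2 (CACCTG and CAGATG), and the upstream Cacnb1 window 0. The window of Cacna2d1, which was higher in MTs, also held 0 and had a GC content of 80.0%, while each of the 2 windows of Kcnn1 held 4, with 1 and 3 in the CAGCTG form. A strict form of the MEF2 element and the SRF box each stood in 0 of the 25 windows, against 0.6% and 1.6% of all windows. Looser forms of the MEF2 element were not counted, and the Clcn3 window at chr8:60954750-60955049 holds a looser match. These matches are a description of letters in short windows.

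The comparison of MTs with MBs asked which channel genes changed during myogenesis. Of the 87 channel genes measured, 12 were called (13.8%), 9 higher and 3 lower in MTs, against 31.1% of all genes (14.6% higher and 16.4% lower). All 12 were among the 19 brighter genes, where the offset compresses ratios least, and 0 of 68 dim genes were called. The median log2 ratio was -0.01 over the 87 genes and -0.02 over all genes. Among the 7 genes over 7.0 in all groups, which the level did not choose for a difference, 4 were called. The 9 genes called higher were the accessory calcium channel subunit genes Cacnb1, Cacng1 and Cacna2d1, the potassium channel genes Kcnj12, Kcnc1, Kcnk13 and Kcnn1, the sodium channel gene Scn10a and the splicing factor gene Scnm1. The 3 called lower were Kcnn4, which like Kcnn1 encodes a calcium-activated potassium channel, Kcnk2 and Clcn3.

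**Figure D2:**
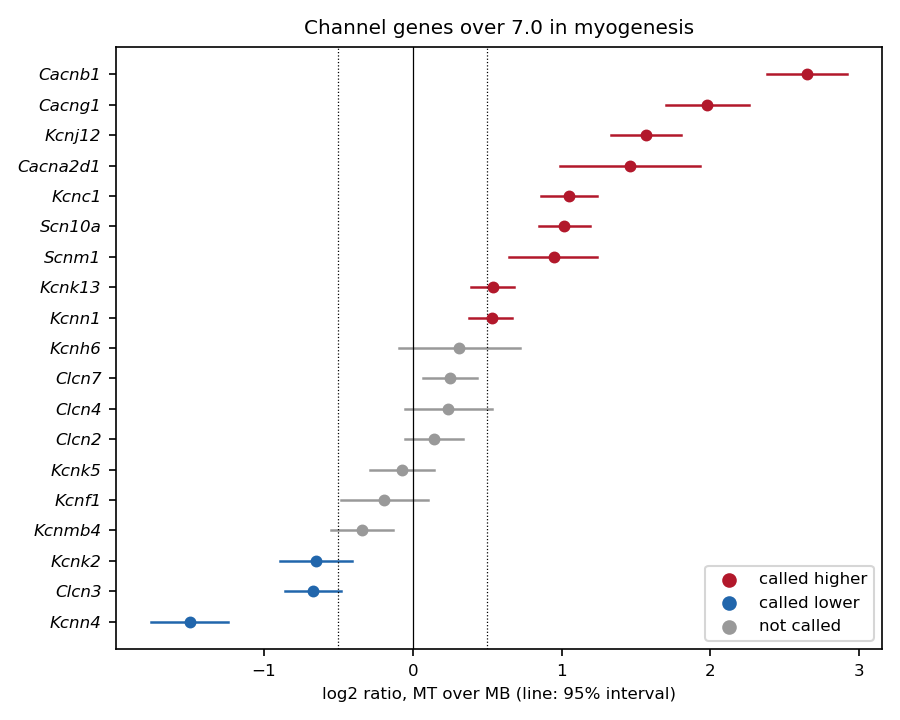
Log2 ratio of MT over MB (x axis) for the 19 channel genes over 7.0 (rows), from limma on all 21 arrays with 3 per group. Lines are 95% intervals, dotted lines mark 0.5 in size, and colours mark the 9 genes called higher, the 3 called lower and the 7 not called.

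By the brightest probe of each, the 3 accessory subunit genes of the muscle calcium channel were all higher in MTs, though other probes of Cacnb1 and Cacna2d1 disagreed (below). Cacnb1, whose β1 subunit carries the pore to the membrane and couples it to the ryanodine receptor, measured 8.98, 8.74 and 8.56 in MTs, against 6.17, 6.14 and 6.03 in MBs. MBs were near background, with 2 of 3 arrays above it, and the groups did not overlap, a log2 ratio of 2.65 ± 0.13 (SE, adjusted p = 1.63e-12) or 6.27-fold. In such bulk samples fewer cells of a type and less RNA per cell cannot be told apart. Cacng1, the γ1 subunit, measured 12.08, 11.83 and 11.60 in MTs, against 9.47, 10.06 and 10.04 in MBs. Cacng1 was thus well above background before differentiation and differed by 1.98 ± 0.13 (SE, adjusted p = 2.9e-10). Cacna2d1, the α2δ1 subunit that promotes surface delivery of the pore, measured 8.61, 9.03 and 9.35 in MTs, against 6.93, 7.50 and 8.17 in MBs. Both groups spread widely for this gene without overlapping, and it was called at 1.46 ± 0.22 (SE, adjusted p = 2.13e-05).

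The calls of Cacnb1 and Cacna2d1 rest on 1 probe each. A second Cacnb1 probe differed by 0.01 (mean 6.25 in MTs, against 6.23 in MBs), and 2 other Cacna2d1 probes gave -0.63 (adjusted p = 3.68e-06) and 0.36 (adjusted p = 0.0282). With the mean of all measured probes Cacna2d1 differed by 0.40 and was not called. Cacng1 has a single probe. The dim β subunit genes were not called: Cacnb2 averaged 6.13 in MTs and 6.48 in MBs (-0.35 ± 0.08, adjusted p = 0.00107), under the size a call asked for, and Cacnb4 differed by -0.07 ± 0.12 (SE, adjusted p = 0.678).

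**Figure D3:**
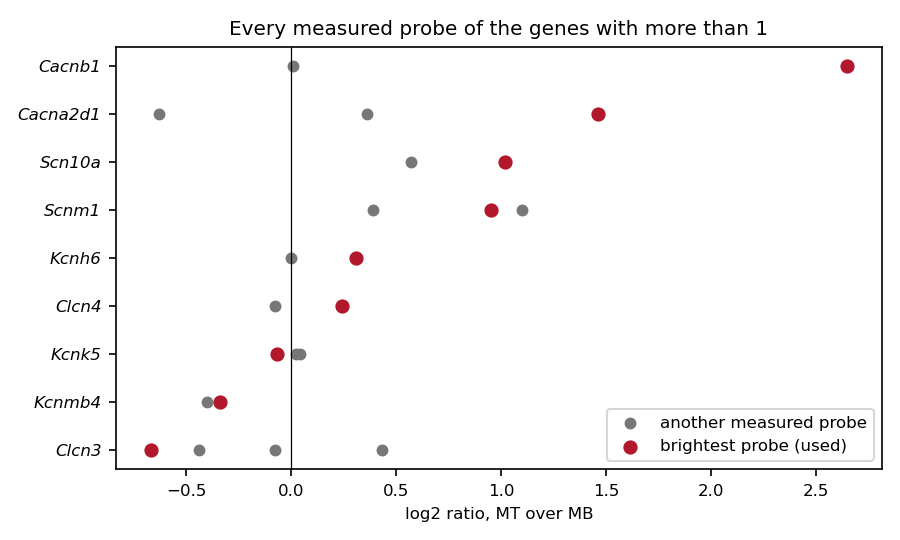
Log2 ratio of MT over MB (x axis) for every measured probe of the 9 genes over 7.0 with more than 1 measured probe (rows). The brightest probe, used in the report, is coloured, and probes of Cacnb1, Cacna2d1 and Clcn3 disagree, while those of Scn10a and Scnm1 go the same way.

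Potassium channel genes moved in both directions. Kcnj12, the inward rectifier Kir2.2, measured 8.02, 7.67 and 7.83 in MTs, against 6.13, 6.26 and 6.42 in MBs. All MT arrays lay above all MB arrays, by 1.57 ± 0.11 (SE, adjusted p = 6.88e-10). Its relative Kcnj2, the Kir2.1 channel known to hyperpolarise human myoblasts before fusion, was dim and measured 6.68, 6.75 and 6.53 in MTs, against 6.43, 6.22 and 6.17 in MBs, a difference of 0.38 ± 0.10 (SE, adjusted p = 0.00313) under the size a call asked for. Kcnc1, the fast delayed rectifier Kv3.1, measured 6.77, 7.15 and 6.88 in MTs, against 5.86, 5.90 and 5.90 in MBs. No MB array was above background, and Kcnc1 was at least 1.84-fold higher in MTs (1.05 ± 0.09, adjusted p = 1.1e-08). The two-pore gene Kcnk13 (THIK-1) was likewise not above background in MBs, with 6.47, 6.33 and 6.33 in MTs, against 5.78, 5.90 and 5.84 in MBs, and was at least 1.25-fold higher (0.54 ± 0.07, adjusted p = 2.66e-06). Kcnn1, the small-conductance calcium-activated channel SK1, measured 6.73, 6.87 and 6.64 in MTs, against 6.15, 6.18 and 6.33 in MBs and was called at 0.53 ± 0.07 (SE, adjusted p = 2.39e-06). It was not called without MB replicate 1 (0.49) or without MT replicate 2 (0.47), nor was Kcnk13 without MT replicate 1 (0.49). Neither was called with the deposited values (Kcnk13 0.31, Kcnn1 0.34), no background correction (0.35 and 0.37) or median scaling (0.31 and 0.25), and Kcnk13 was also not called with array weights (0.48) or with control shRNA MTs in place of MTs (0.28).

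Kcnn4, the intermediate-conductance calcium-activated channel known from dividing cells such as lymphocytes and fibroblasts, had the largest fall. It measured 6.82, 6.68 and 6.75 in MTs, against 7.95, 8.22 and 8.58 in MBs. MBs were higher in every array, and the difference was -1.50 ± 0.12 (SE, adjusted p = 5.62e-09), a 2.83-fold lower level in MTs. Kcnk2 (TREK-1), a two-pore channel opened by stretch and lipids, measured 6.25, 6.19 and 6.39 in MTs, against 7.22, 6.92 and 6.65 in MBs and fell by 0.65 on the log2 scale (SE 0.11, adjusted p = 9.86e-05), but was not called with the deposited values (-0.44) or no background correction (-0.48). Kcnmb4, the neuronal-type β4 accessory subunit of the large-conductance calcium-activated channel, measured 6.45, 6.33 and 6.51 in MTs, against 6.56, 6.71 and 7.03 in MBs and differed by -0.34 ± 0.10 (SE, adjusted p = 0.00787), under the size a call asked for, and its second probe by -0.40. Kcnk5 (TASK-2), Kcnf1, a silent modulatory subunit, and Kcnh6 (ERG2) were not called. Kcnk5 measured 7.74, 7.59 and 8.07 in MTs, against 7.72, 7.93 and 7.96 in MBs, with overlapping groups and a ratio of -0.07 (95% interval -0.29 to 0.14). The intervals were -0.48 to 0.10 for Kcnf1 and -0.09 to 0.72 for Kcnh6.

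Of the sodium channel genes only Scn10a exceeded 7.0. It encodes Nav1.8, the tetrodotoxin-resistant sodium channel known from pain-sensing neurons. Scn10a measured 7.07, 7.16 and 6.95 in MTs, against 6.04, 6.12 and 5.95 in MBs. In MBs 2 of 3 arrays were above background, and the difference was 1.02 ± 0.08 (SE, adjusted p = 4.92e-09). A second, dimmer probe went the same way (0.57, adjusted p = 5.17e-05). Of 10 neuron markers with a probe 6 could be tested, with 1 called higher (Eno2, 1.14) and 1 lower (Stmn2, -1.13), and Snap25 and Neurod1 were above background in 0 of 21 arrays. Scnm1, the splicing factor, measured 9.0, 9.05 and 9.01 in MTs, against 7.70, 8.37 and 8.16 in MBs and was called at 0.95 ± 0.14 (SE, adjusted p = 1.41e-05), with its 2 other probes at 1.10 and 0.39, but not with median scaling (0.42, adjusted p = 0.247). The dim Scn3a differed by -0.03, and the β subunit gene Scn3b measured 6.04, 5.75 and 5.99 in MTs, against 5.89, 5.92 and 5.76 in MBs, with 0 arrays of either group above background.

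Among the chloride genes, Clcn3, an endosomal chloride-proton exchanger, fell. It measured 8.99, 8.71 and 9.16 in MTs, against 9.53, 9.62 and 9.71 in MBs, a difference of -0.67 ± 0.09 (SE, adjusted p = 4.56e-06). Its other bright probes gave -0.44 (adjusted p = 0.00425) and 0.43 (adjusted p = 0.277), and the mean of its probes differed by -0.19 and was not called. With control shRNA MTs in place of MTs, Clcn3 differed by -0.28 (adjusted p = 0.013) and was not called either. Clcn7, the lysosomal exchanger that works with Ostm1, measured 7.85, 7.91 and 8.04 in MTs, against 7.70, 7.65 and 7.69 in MBs, higher in every MT array by 0.25 ± 0.09 (SE, adjusted p = 0.0208), under the size a call asked for. Ostm1 was called at 0.78. Clcn2 and Clcn4 were not called, with intervals of -0.05 to 0.34 and -0.05 to 0.53. Clcn1, which carries most of the resting chloride conductance of mature muscle, stayed near background, at 5.95, 6.09 and 6.13 in MTs, against 6.07, 6.16 and 6.06 in MBs.

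Several other channels known from skeletal muscle were also near background at day 6. The calcium-activated Kcnn3 (SK3) measured 6.32, 6.34 and 6.28 in MTs, against 5.86, 5.94 and 6.00 in MBs, a difference under the size a call asked for (0.38 ± 0.09, adjusted p = 0.00103), with 0 of 3 MB arrays above background. The delayed rectifier Kcnc4 measured 6.02, 6.18 and 6.04 in MTs, against 5.96, 6.01 and 6.28 in MBs, and Kcna7 6.01, 6.19 and 5.97 in MTs, against 5.86, 5.80 and 5.97 in MBs. Neither was called. The ether-a-go-go genes were not called either: Kcnh1, known to be expressed as human myoblasts commit to fusion, measured 6.07, 5.83 and 5.93 in MTs, against 6.03, 6.11 and 6.07 in MBs, and Kcnh2 (ERG1) 6.24, 6.22 and 6.10 in MTs, against 5.98, 6.34 and 6.35 in MBs. The pore of the ATP-sensitive channel, Kcnj11, measured 6.10, 5.86 and 6.38 in MTs, against 6.22, 6.08 and 6.07 in MBs, and the auxiliary subunit gene Kcne4 5.91, 6.08 and 6.32 in MTs, against 6.05, 5.99 and 6.00 in MBs. The T-type calcium pore gene Cacna1h (5.85, 5.98 and 5.78 in MTs, against 5.94, 5.87 and 5.83 in MBs), the large-conductance channel gene Kcnma1 (6.02, 5.97 and 6.00 in MTs, against 5.98, 5.87 and 6.08 in MBs), Kcnq5 (5.85, 5.79 and 5.84 in MTs, against 5.74, 5.81 and 5.83 in MBs) and Kcne3 (5.90, 5.92 and 5.83 in MTs, against 5.76, 5.96 and 5.86 in MBs) were above background in 0 of 21 arrays. Of the 18 muscle channel genes measured, 4 were called higher and 2 lower, while of all genes 14.6% were called higher and 16.4% lower.

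Most of the genes that work with these channels in excitation and contraction were higher in MTs. Of all genes 14.6% were called higher and 16.4% lower, the shares to set beside each list here. Of 21 measured excitation-contraction coupling and excitability genes, 18 were called higher and 1 lower in MTs, with a median log2 ratio of 1.96. The largest were Atp2a1, the calcium pump of the sarcoplasmic reticulum (6.55), Chrng, the fetal acetylcholine receptor subunit (5.75), and Casq2, a calcium store protein (5.67). Ryr1, the release channel that the sensor complex opens, differed by 5.30. Of 17 channel anchoring and trafficking genes, 5 were higher and 1 lower (median 0.13), led by Rrad, a small GTPase that inhibits calcium channels (2.25), Ank1 (2.05) and Fgf13, a sodium channel partner (2.00). Outside the symbol rule, 1 of 7 measured voltage-gated or leak channel genes was called (Catsper2, 0.69). Myotube markers (9 of 9 higher, median 5.90) and dividing myoblast markers (7 of 9 lower, median -3.80) moved in opposite directions. Of the other cell types, 0 Schwann cell markers were higher and 1 lower of 4 measured, 1 and 0 of 7 endothelial and smooth muscle markers, and 2 and 1 of 6 cardiomyocyte markers (Myl4, 6.56, and Myh6, 1.11, higher and Nppb, -0.83, lower). The part of other cells in the channel changes was not tested.

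**Figure D4:**
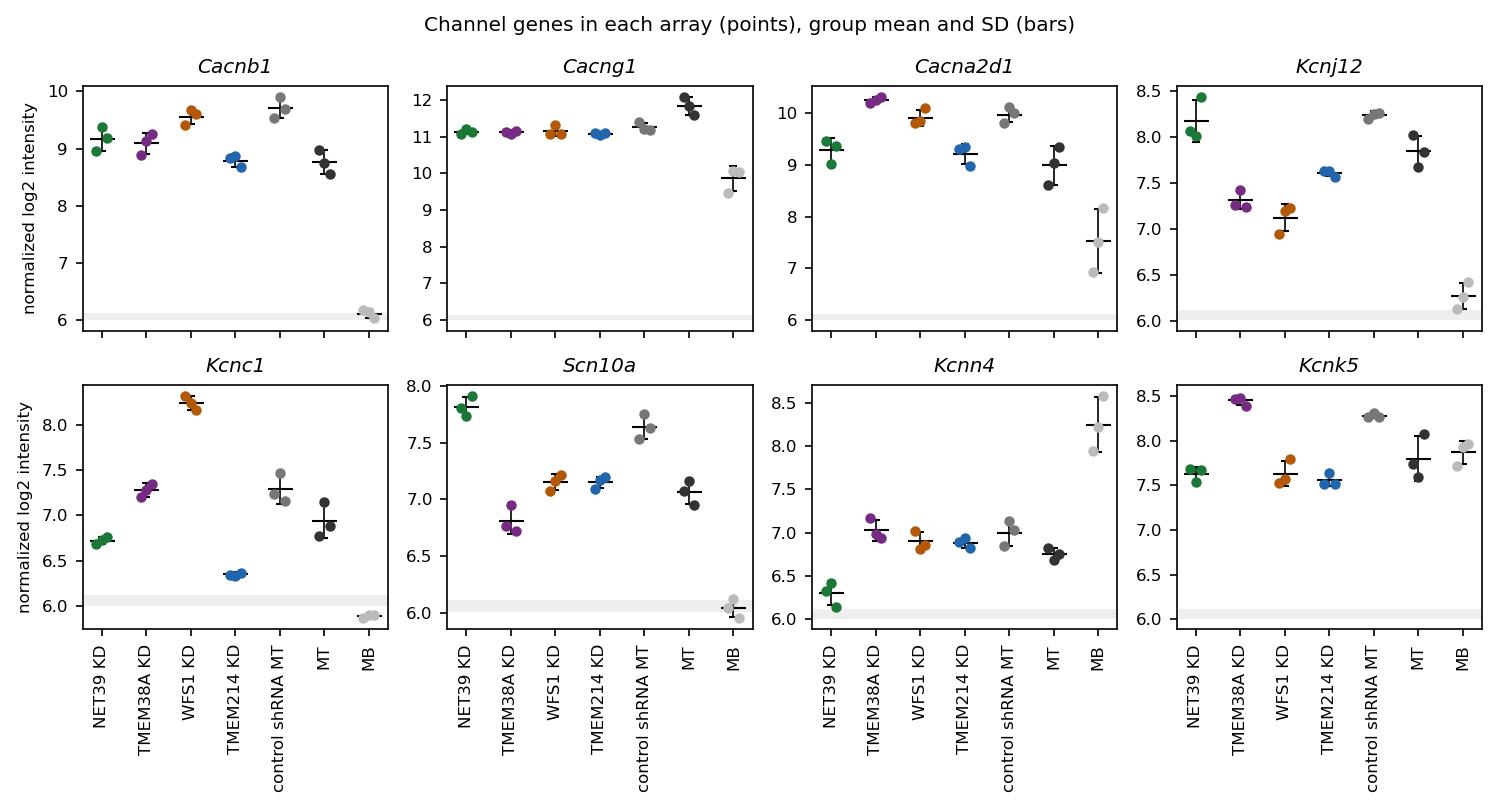
Normalized log2 intensity (y axes) of 8 channel genes in each of 21 arrays (points), with the group mean and SD (bars, n = 3), for the 4 KD lines, control shRNA MTs, untransduced MTs and MBs from left to right. The grey band is the range of the arrays' background levels, 6.01 to 6.11, and Cacnb1, Kcnc1 and Scn10a come near it only in MBs.

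Control shRNA MTs were compared with untransduced MTs to show what transduction and selection went with. Of 87 channel genes 7 were called (8.05%), 3 higher and 4 lower in control shRNA MTs, against 11.5% of all genes (6% higher and 5.54% lower). The higher genes were Cacna2d1, Cacnb1 and Scn10a, each also called higher in MTs over MBs, and both comparisons use the same 3 MT arrays. Cacna2d1 measured 9.81, 10.11 and 10.00 in control shRNA MTs, against 8.61, 9.03 and 9.35 in MTs (0.98 ± 0.22, adjusted p = 0.00364), and its other 2 probes differed by 0.03 and -0.02. Cacnb1 measured 9.54, 9.90 and 9.69 in control shRNA MTs, against 8.98, 8.74 and 8.56 in MTs (0.95 ± 0.13, adjusted p = 2.99e-05), and Scn10a 7.53, 7.75 and 7.63 in control shRNA MTs, against 7.07, 7.16 and 6.95 in MTs (0.58 ± 0.08, adjusted p = 5.92e-05). The groups did not overlap for any of the 3 genes, which was also so for 34.1% of all genes tested. With the mean of probes neither Cacna2d1 (0.33) nor Scn10a (0.42) was called, nor was Scn10a with the deposited values (0.45) or no background correction (0.48).

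The genes called lower were Scnm1, at 8.23, 7.90 and 7.91 in control shRNA MTs, against 9.0, 9.05 and 9.01 in MTs (-1.01 ± 0.14, adjusted p = 4.28e-05), Cacng1, at 11.39, 11.20 and 11.19 in control shRNA MTs, against 12.08, 11.83 and 11.60 in MTs (-0.58 ± 0.13, adjusted p = 0.00379), Kcnh6, at 6.38, 6.51 and 6.42 in control shRNA MTs, against 6.55, 7.39 and 7.22 in MTs (-0.62 ± 0.19, adjusted p = 0.0265), and the dim Kcnj2, at 6.09, 6.07 and 6.29 in control shRNA MTs, against 6.68, 6.75 and 6.53 in MTs (-0.50 ± 0.10, adjusted p = 0.00093). Kcnh6 varied among untransduced MTs, where replicate 1 lay near the control shRNA arrays, and was not called when any 1 of the 6 arrays other than that one was left out (-0.45 to -0.65). Without MT replicate 1 Cacng1 was not called (-0.45), nor was Kcnj2 without MT replicate 1 or 2 or control shRNA replicate 1 or 2 (-0.49 to -0.46). Neither Kcnh6 nor Kcnj2 was called with the deposited values, no background correction or median scaling (-0.05 and -0.17). Kcnh6 was also not called with the mean of probes, the moderated F or only the arrays compared, and Kcnj2 not with array weights. Scnm1, at 8.01 in control shRNA MTs and 8.08 in MBs, differed by -0.06 between those groups (adjusted p = 0.739). The MBs were untransduced, so whether Scnm1 rose within the control shRNA line was not tested.

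These calls depend on how the arrays are scaled, and the shRNA arrays were the brighter ones. With each array only shifted to a common median, the median of all genes lay 0.51 higher in control shRNA MTs, and 13 channel genes were called higher and 0 lower, against 3 and 4 above. On that scale Cacng1 was higher (0.80, adjusted p = 0.00882), or 0.30 above the median of all genes, and Scnm1 differed by 0.23, or -0.28 relative to that median. Cacna2d1, Cacnb1 and Scn10a kept their direction, at 1.83, 1.76 and 0.85 above the median. The shares of all called genes that were higher were 99.8% with median scaling and 52% with quantile normalization. With quantile normalization 6% of all genes were called higher and 5.54% lower, the shares to set beside the lists here. Excitation-contraction genes were 6 higher and 3 lower of 21 measured (median 0.05), led by Jph2 (-1.40), Stac3 (-1.23) and Casq1 (1.23). Anchoring genes were 3 higher and 0 lower of 17 measured (median 0.04), and muscle channel genes 2 higher and 2 lower of 18 measured (median -0.03). Dividing myoblast markers were 0 higher and 3 lower of 9 measured (median -0.34), and myotube markers 1 higher and 2 lower of 9 measured (median -0.23), with Mef2c higher (0.85) and Mymk (-1.06) and Mb (-0.58) lower. Of 6 measured neuron markers Stmn2 was called higher (1.12), while Pmp22 of the Schwann cell markers (-1.12) and Acta2 of the endothelial and smooth muscle markers (-0.73) were lower and 0 cardiomyocyte markers were called. The part of these genes in the channel values was not tested.

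Each KD line was set against the same 3 control shRNA arrays, so the 4 comparisons share them. The channel genes called were 7 of 87 in NET39 KD MTs (8.05%, against 9.37% of all genes), 3 in TMEM38A KD MTs (3.45%, against 9.73%), 4 in WFS1 KD MTs (4.6%, against 8.3%) and 6 in TMEM214 KD MTs (6.9%, against 9.42%). In each line the share of channel genes called was below that of all genes. But 68 of the 87 were dim genes, whose ratios the offset compresses, and 0 of those were called. These shares therefore do not show whether channel genes changed less than other genes of the same brightness. The median log2 ratios of the 87 genes were -0.03, 0.03, -0.04 and -0.06 in NET39, TMEM38A, WFS1 and TMEM214 KD MTs, and those of all genes -0.02, 0.00, -0.03 and -0.02. In one direction, 1 channel gene was higher and 6 lower in NET39 KD MTs (all genes 4.97% and 4.4%), 0 and 3 in TMEM38A KD MTs (4.08% and 5.65%), 2 and 2 in WFS1 KD MTs (4.19% and 4.11%), and 1 and 5 in TMEM214 KD MTs (5.2% and 4.21%).

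**Figure D5:**
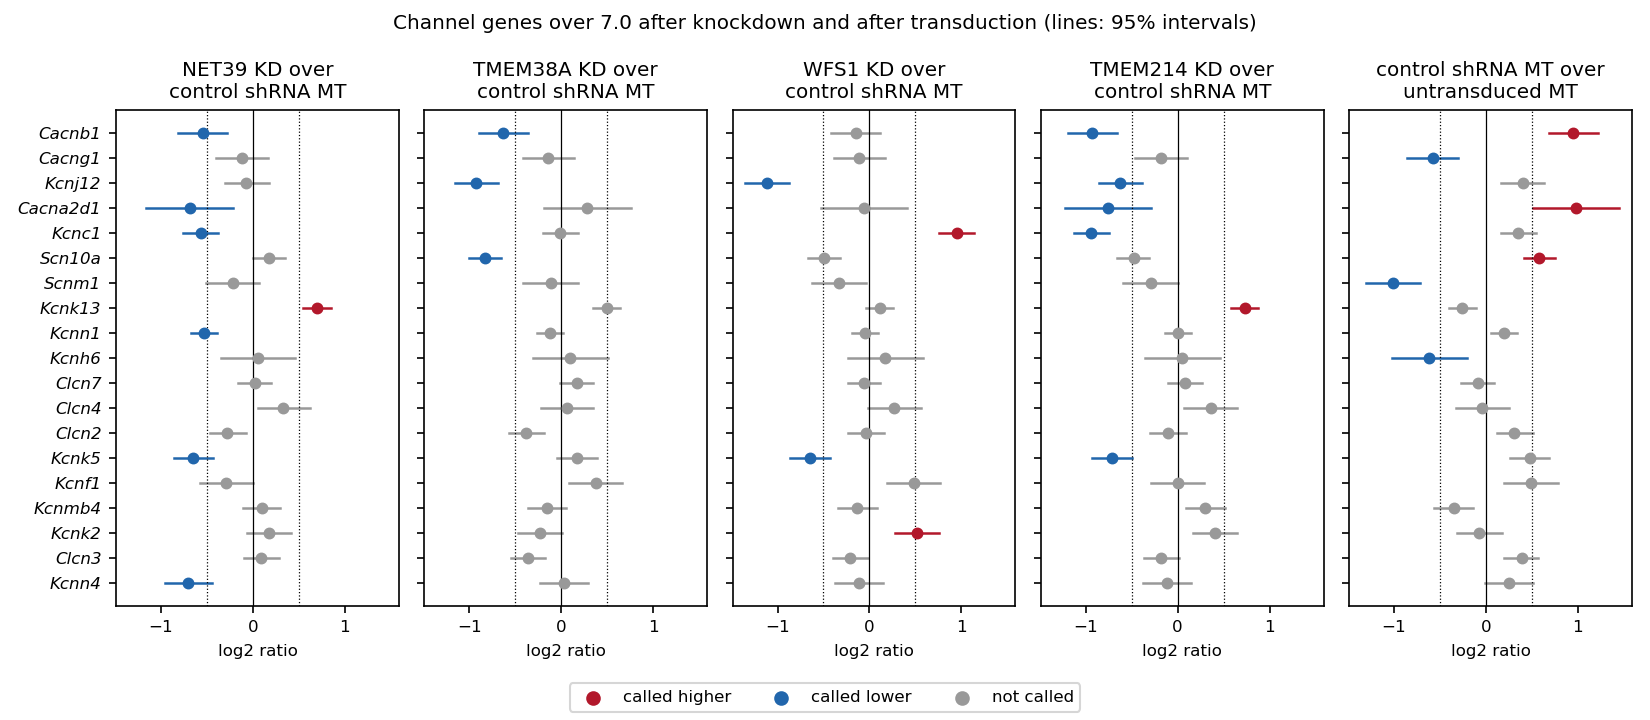
Log2 ratios (x axes) of the 19 channel genes over 7.0 (rows, in the order of the myogenesis plot) for the 4 KD lines over control shRNA MTs and, at the right, control shRNA MTs over untransduced MTs. Lines are 95% intervals, dotted lines mark 0.5 in size, and Kcnj12, Kcnc1 and Kcnk5 differ between lines.

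Of the calcium channel subunit genes, Cacnb1 was called lower in 3 lines. It measured 8.96, 9.38 and 9.18 in NET39 KD MTs, against 9.54, 9.90 and 9.69 in control shRNA MTs, a difference of -0.54 ± 0.13 (SE, adjusted p = 0.00534). It measured 8.88, 9.13 and 9.26 in TMEM38A KD MTs (-0.63 ± 0.13, adjusted p = 0.0015), 8.83, 8.87 and 8.67 in TMEM214 KD MTs (-0.93 ± 0.13, adjusted p = 4.08e-05) and 9.42, 9.68 and 9.60 in WFS1 KD MTs (-0.15 ± 0.13, adjusted p = 0.501), where it was not called. Cacnb1 fell below the control in every array of TMEM214 KD MTs, and the difference between WFS1 KD and TMEM214 KD MTs was itself called (0.78 ± 0.13, adjusted p = 0.00019). Cacna2d1 was called lower in NET39 KD MTs, at 9.47, 9.02 and 9.36 (-0.69 ± 0.22, adjusted p = 0.04), and in TMEM214 KD MTs, at 9.31, 9.35 and 8.98 (-0.76 ± 0.22, adjusted p = 0.0242), against 9.81, 10.11 and 10.00 in control shRNA MTs. In TMEM38A KD MTs it measured 10.20, 10.25 and 10.31 (0.28 ± 0.22, adjusted p = 0.483), and in WFS1 KD MTs 9.81, 9.84 and 10.09 (-0.06 ± 0.22, adjusted p = 0.909). The Cacna2d1 call in NET39 KD MTs was lost when any 1 of the 6 arrays was left out (-0.78 to -0.56), and that in TMEM214 KD MTs without control shRNA replicate 2 or 3 or TMEM214 KD replicate 3 (-0.75 to -0.64). Cacnb1 in NET39 KD MTs was not called without control shRNA replicate 2 (-0.45) or NET39 KD replicate 1 (-0.44), with the deposited values (-0.50) or with median scaling (-0.53, adjusted p = 0.0652). With the mean of probes Cacnb1 was not called in NET39 KD (-0.41) or TMEM38A KD MTs (-0.49), nor Cacna2d1 in NET39 KD (-0.28) or TMEM214 KD MTs (-0.41). The other 2 Cacna2d1 probes differed by -0.06 and -0.10 in NET39 KD MTs (adjusted p = 0.76 and 0.724) and by -0.11 and -0.37 in TMEM214 KD MTs (adjusted p = 0.447 and 0.0609). Cacna2d1 in NET39 KD MTs was also not called with an offset of 16 or no filter (adjusted p = 0.0555 and 0.0557). Cacng1, the brightest channel gene, lay between 11.05 and 11.31 in all 12 KD arrays and was called in 0 lines, with intervals that reached no further than -0.46.

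Set against untransduced MTs, neither Cacnb1 nor Cacna2d1 was called lower in these lines. That reference also differs by transduction, here and below, so it cannot show whether a change against the control shRNA holds. Cacnb1 then differed by 0.41 in NET39 KD MTs (adjusted p = 0.0258), 0.33 in TMEM38A KD MTs (adjusted p = 0.0565) and 0.03 in TMEM214 KD MTs (adjusted p = 0.907). Cacna2d1 differed by 0.29 in NET39 KD MTs and 0.22 in TMEM214 KD MTs (adjusted p = 0.4 and 0.538). The 2 genes were the channel subunit genes that rose most in control shRNA MTs over untransduced MTs, and the control arrays enter both comparisons.

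Kcnj12 was lower in 3 of 4 lines. It measured 7.26, 7.42 and 7.24 in TMEM38A KD MTs (-0.93 ± 0.11, adjusted p = 5.57e-06), 6.94, 7.19 and 7.22 in WFS1 KD MTs (-1.12 ± 0.11, adjusted p = 9.27e-07) and 7.63, 7.63 and 7.56 in TMEM214 KD MTs (-0.63 ± 0.11, adjusted p = 0.000514), against 8.19, 8.25 and 8.26 in control shRNA MTs. Every array of these 3 lines lay below every control array. In NET39 KD MTs it measured 8.06, 8.01 and 8.43, overlapping the control (-0.07 ± 0.11, adjusted p = 0.776). NET39 KD MTs were higher than the other lines, by 0.86 ± 0.11 (SE, adjusted p = 7.27e-06) over TMEM38A KD, 1.05 ± 0.11 (SE, adjusted p = 1.02e-06) over WFS1 KD and 0.56 ± 0.11 (SE, adjusted p = 0.00259) over TMEM214 KD MTs. Neighbours in the order of levels were not told apart between TMEM38A and WFS1 KD MTs (0.19, 95% interval -0.05 to 0.42). Against untransduced MTs, Kcnj12 was called lower in WFS1 KD MTs (-0.72, adjusted p = 7.58e-05) and TMEM38A KD MTs (-0.53, adjusted p = 0.00105), but not in TMEM214 KD MTs (-0.23, adjusted p = 0.148). The dim Kcnj2 was not called in any of the 4 lines, with means of 6.22, 6.29, 6.25 and 6.20 in NET39, TMEM38A, WFS1 and TMEM214 KD MTs and 6.15 in control shRNA MTs.

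Kcnc1 went in opposite directions. It was higher in WFS1 KD MTs, at 8.32, 8.24 and 8.16 (0.95 ± 0.09, adjusted p = 5.25e-07), and lower in TMEM214 KD MTs, at 6.34, 6.33 and 6.36 (-0.94 ± 0.09, adjusted p = 7.66e-07), and NET39 KD MTs, at 6.68, 6.73 and 6.76 (-0.57 ± 0.09, adjusted p = 0.000181), against 7.24, 7.47 and 7.16 in control shRNA MTs. In TMEM38A KD MTs, at 7.20, 7.28 and 7.35, it differed by -0.01 (95% interval -0.20 to 0.18). WFS1 and TMEM214 KD MTs differed by 1.89 ± 0.09 (SE, adjusted p = 2.48e-11), or 3.72-fold, the widest gap between lines among the 19 genes. NET39 and TMEM214 KD MTs were neighbours and differed by 0.37 ± 0.09 (SE, adjusted p = 0.0106), without overlap but under the size a call asked for. Against untransduced MTs Kcnc1 was called higher in WFS1 KD MTs (1.30, adjusted p = 4.71e-09) and lower in TMEM214 KD MTs (-0.59, adjusted p = 0.00012). On that reference NET39 KD MTs, at -0.22, were not called. NET39 KD MTs were also not called without control shRNA replicate 2 (-0.48), with the deposited values (-0.42) or with no background correction (-0.45).

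The two-pore genes split the lines as well. Kcnk5 was lower in NET39 KD MTs (7.68, 7.54 and 7.67, -0.65 ± 0.10, adjusted p = 0.000176), WFS1 KD MTs (7.53, 7.57 and 7.79, -0.65 ± 0.10, adjusted p = 0.000173) and TMEM214 KD MTs (7.52, 7.64 and 7.52, -0.71 ± 0.10, adjusted p = 6.37e-05), against 8.27, 8.31 and 8.26 in control shRNA MTs. TMEM38A KD MTs, at 8.47, 8.48 and 8.39, stood apart from the other lines, by 0.82 ± 0.10 (SE, adjusted p = 7.59e-06) over WFS1 KD and 0.88 ± 0.10 (SE, adjusted p = 1.9e-06) over TMEM214 KD MTs, and the difference of NET39 KD from TMEM38A KD MTs was -0.82 (adjusted p = 5.03e-06). The 3 falls were not called against untransduced MTs (-0.17 in NET39 KD, -0.17 in WFS1 KD and -0.23 in TMEM214 KD MTs) or with the mean of 3 probes (-0.32, -0.33 and -0.39 in the same lines). Kcnk13 was higher in NET39 KD MTs (6.75, 6.94 and 6.77, 0.70 ± 0.07, adjusted p = 9.33e-07) and TMEM214 KD MTs (6.81, 6.85 and 6.88, 0.73 ± 0.07, adjusted p = 7.66e-07), against 6.18, 6.07 and 6.11 in control shRNA MTs, where 2 of 3 arrays were above background. Against untransduced MTs Kcnk13 was called in neither line (0.44 in NET39 KD and 0.47 in TMEM214 KD MTs), nor was it with the deposited values (0.45 and 0.46). These ratios were under the size a call asked for. With no background correction the Kcnk13 call in NET39 KD MTs was lost. In TMEM38A KD MTs its ratio of 0.50 ± 0.07 (SE, adjusted p = 3.41e-05) lay just under the size a call asked for. Kcnk2 was higher in WFS1 KD MTs (6.91, 6.60 and 6.68, 0.52 ± 0.11, adjusted p = 0.0036, against 6.24, 6.35 and 6.04 in control shRNA MTs), but was not called without control shRNA replicate 3 (0.43) or WFS1 KD replicate 1 (0.43), against untransduced MTs (0.45), with median scaling (0.48, adjusted p = 0.0653), with the deposited values (0.33) or with no background correction (0.37). In TMEM38A KD MTs Kcnk2 was above background in 0 of 3 arrays, and it was at least 1.58-fold lower there than in WFS1 KD MTs (adjusted p = 6.74e-05).

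2 calcium-activated potassium channel genes were called lower in NET39 KD MTs and called in no other line. Kcnn4 measured 6.33, 6.42 and 6.14 in NET39 KD MTs, against 6.85, 7.14 and 7.03 in control shRNA MTs (-0.71 ± 0.12, adjusted p = 0.000454), and Kcnn1 6.45, 6.41 and 6.39 in NET39 KD MTs, against 6.94, 6.92 and 6.98 in control shRNA MTs (-0.53 ± 0.07, adjusted p = 1.73e-05). NET39 KD MTs were lower than TMEM38A, WFS1 and TMEM214 KD MTs for Kcnn4 by 0.73, 0.60 and 0.58 log2, each called (adjusted p = 0.000131, 0.00138 and 0.00417). For Kcnn1 the difference was called only against TMEM214 KD MTs (-0.53, adjusted p = 2.78e-05), and was -0.41 and -0.48 against TMEM38A and WFS1 KD MTs. In NET39 KD MTs 7 of 9 dividing myoblast markers were called higher (median 1.41), against 4.97% of all genes. In the untransduced cells Kcnn4 was lower in MTs than in MBs. The part of the marker shift in the Kcnn4 values was not tested. Against untransduced MTs both falls were under the size a call asked for (Kcnn4 -0.45, Kcnn1 -0.33), as they were with the deposited values (-0.47 and -0.36), and Kcnn1 with no background correction (-0.39).

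Scn10a was lower in TMEM38A KD MTs, at 6.76, 6.95 and 6.72, against 7.53, 7.75 and 7.63 in control shRNA MTs (-0.83 ± 0.08, adjusted p = 6.08e-07), and its second probe differed by -0.52 (adjusted p = 0.000585). WFS1 and TMEM214 KD MTs lay just under the size a call asked for, at -0.49 ± 0.08 (SE, adjusted p = 0.000304) and -0.48 ± 0.08 (SE, adjusted p = 0.000363), and differed from each other by -0.01 (95% interval -0.18 to 0.17). NET39 KD MTs, at 7.80, 7.73 and 7.91, overlapped the control and were higher than TMEM38A KD MTs by 1.01 ± 0.08 (SE, adjusted p = 2.62e-08). Against untransduced MTs the difference in TMEM38A KD MTs was -0.25 (adjusted p = 0.0275) and was not called. Of the neuron markers, Stmn2 was also called lower in TMEM38A KD MTs (-3.21), WFS1 KD MTs (-1.69), TMEM214 KD MTs (-1.09) and NET39 KD MTs (-1.03), and Eno2 was lower in TMEM38A KD MTs (-0.83) and NET39 KD MTs (-0.77) and higher in WFS1 KD MTs (1.75). The log2 of the mean signal of the 10 neuron markers was 6.66 to 6.77 in NET39 KD, 6.23 to 6.39 in TMEM38A KD, 7.66 to 7.75 in WFS1 KD and 6.78 to 6.83 in TMEM214 KD arrays, against 7.21 to 7.40 in control shRNA arrays, and the part of these genes in the Scn10a values was not tested.

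The chloride genes were called in 0 of 4 lines. Clcn3 measured 9.39, 9.42 and 9.47 in NET39 KD MTs, 9.01, 9.02 and 8.90 in TMEM38A KD MTs, 9.19, 9.12 and 9.09 in WFS1 KD MTs and 9.08, 9.15 and 9.24 in TMEM214 KD MTs, against 9.41, 9.34 and 9.27 in control shRNA MTs. TMEM38A KD MTs were lowest, without overlap (-0.36 ± 0.09, adjusted p = 0.00702), and NET39 KD MTs were higher than they by 0.45 ± 0.09 (SE, adjusted p = 0.000682). Clcn7 lay between 7.61 and 8.07 in the 12 KD arrays. Clcn2 was lower in TMEM38A KD MTs by 0.38 log2 (adjusted p = 0.00637), under the size a call asked for, and Clcn1 was above background in 1 array each of TMEM38A and WFS1 KD MTs and in 0 of the other KD and control arrays.

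Between lines, the channel genes called of 87 were 7 for NET39 over TMEM38A KD (16.9% of all genes called), 6 for NET39 over WFS1 KD (11.9%) and 4 for NET39 over TMEM214 KD (5.19%). They were 3 for TMEM38A over WFS1 KD (12.4%), 4 for TMEM38A over TMEM214 KD (15.3%) and 4 for WFS1 over TMEM214 KD (10.2%). As shares of 87 these were 8.05%, 6.9%, 4.6%, 3.45%, 4.6% and 4.6%, each below the share of all genes in the same pair. Here too 68 of the 87 were dim genes with compressed ratios, and 0 of those were called. Kcnf1 was called only between lines: NET39 KD MTs (7.02, 6.98 and 6.98) were lower than WFS1 KD MTs (7.73, 7.82 and 7.75; -0.77 ± 0.14, adjusted p = 0.000342) and lower than TMEM38A KD MTs (7.70, 7.54 and 7.74; -0.67 ± 0.14, adjusted p = 0.00096).

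Of all genes, 4.97% were called higher and 4.4% lower in NET39 KD and 4.08% and 5.65% in TMEM38A KD MTs. These shares were 4.19% and 4.11% in WFS1 KD and 5.2% and 4.21% in TMEM214 KD MTs. Of the partner genes of the channels, 10 of 21 were lower in TMEM214 KD MTs. Excitation-contraction genes were 0 higher and 10 lower of 21 measured (median -0.51) there, with Casq1 (-1.13), Ryr1 (-0.81) and Asph (-0.75) the largest. They were 2 higher and 5 lower of 21 measured (median -0.10) in NET39 KD MTs, 3 higher and 2 lower of 21 measured (median 0.04) in TMEM38A KD MTs and 0 higher and 2 lower of 21 measured (median -0.11) in WFS1 KD MTs. Chrne, the adult acetylcholine receptor subunit, was higher in TMEM38A KD MTs (2.03) and NET39 KD MTs (1.37), and Casq2 lower in TMEM38A KD MTs (-1.17). Anchoring and trafficking genes were 0 higher and 3 lower of 17 measured (median -0.06) in NET39 KD, 3 higher and 2 lower of 17 measured (median 0.09) in TMEM38A KD, 2 higher and 2 lower of 17 measured (median 0.03) in WFS1 KD and 0 higher and 2 lower of 17 measured (median -0.10) in TMEM214 KD MTs. Among them Rrad was higher in WFS1 KD MTs (1.19), Ank3, the anchor of sodium and potassium channels, was higher in TMEM38A and WFS1 KD MTs (0.92 and 0.71), and Abcc8, a partner of Kcnj11, was higher in TMEM38A KD MTs (0.72). Muscle channel genes were 0 higher and 3 lower of 18 measured (median -0.04) in NET39 KD, 0 higher and 2 lower of 18 measured (median 0.01) in TMEM38A KD, 1 higher and 2 lower of 18 measured (median -0.01) in WFS1 KD and 0 higher and 4 lower of 18 measured (median -0.08) in TMEM214 KD MTs, and of 7 channel genes outside the symbol rule 1 was called in each of NET39 KD (Catsper2, -0.58), TMEM38A KD (Tpcn1, 0.90) and TMEM214 KD MTs (Catsper2, -0.69).

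Markers of the differentiation state were called in every KD line, and most dividing myoblast markers were higher in NET39 and TMEM214 KD MTs. The shares of all genes called in each line, given above, apply to these lists too. Dividing myoblast markers were called higher for 7 of 9 genes in NET39 KD MTs and 6 of 9 in TMEM214 KD MTs (median 0.63), for 1 of 9 in TMEM38A KD MTs with 2 lower, and for 0 of 9 in WFS1 KD MTs. The log2 of their mean signal was 8.27 to 8.35 in NET39 KD, 6.82 to 6.84 in TMEM38A KD, 6.93 to 6.98 in WFS1 KD and 7.57 to 7.68 in TMEM214 KD arrays, against 6.91 to 7.00 in control shRNA and 10.57 to 10.85 in MB arrays. Myotube markers were called lower for 4 of 9 genes in TMEM214 KD MTs (Mb, -1.73, and Mef2c, -1.63, the largest), 2 of 9 in NET39 KD, 2 of 9 in TMEM38A KD with 2 higher, and 1 of 9 in WFS1 KD MTs with 1 higher. The part of these shifts in the channel values was not tested. Schwann cell markers were called higher for 2 of 4 measured genes in NET39, WFS1 and TMEM214 KD MTs (Egr2 and Pmp22), while S100b was above background in 0 arrays and Sox10 in 2 of 21. Of the cardiomyocyte markers, Myh6 was called higher in TMEM38A KD MTs (2.65) and WFS1 KD MTs (1.46). Of 7 endothelial and smooth muscle markers, Acta2 was called higher in NET39 KD (0.58), TMEM38A KD (0.92) and TMEM214 KD MTs (0.75), with means of 14.25, 14.59 and 14.42, against 13.67 in control shRNA MTs, and Myh11 was above background in 0 arrays.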

How the data were processed

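Illumina MouseWG-6 arrays (21, in 7 labelled groups of 3) measured RNA of C2C12 cells. The authors deposited a scanner table of non-normalized intensity, with no detection p-values or control probes. Their deposited matrix is on the log2 scale and, by their methods, quantile-normalized. They used limma, version not given in the sources used here, and their fold and p-values were not used here. Channel genes were chosen by symbol and marked by level on the deposited log2 values. The members and all lists were chosen with earlier results of these data known.

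The scanner intensities were corrected with normexp (offset 50), quantile-normalized and put on the log2 scale (limma 3.58.1, R 4.3.3). The background level of an array was set from its log2 signals as their mode (density bandwidth 0.01) plus the upper normal quantile at 0.05 times an SD taken from values under the mode. Of 45281 probes, 27870 (61.55%) were above it in at least 3 arrays. The annotation gave 34885 probes 1 symbol, updated through gene IDs. The probe with the highest mean deposited value stood for each gene, and 13548 genes were tested. A limma model with 1 mean per group (lmFit, eBayes, two-sided, Benjamini-Hochberg over genes) was fitted to all 21 arrays, and the fitting step was tested on simulated data. Intervals are 95%. The median SE of a log2 ratio was 0.1055, a precision limited by the number of arrays. Where 0 arrays of the dimmer group exceeded background, its values were raised to the background level and the fold is given as "at least". Named genes were up to 8 called per direction and comparison and all of 28 listed muscle channel genes that had a probe, with up to 3 called genes for other lists.

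Deviations of same-numbered replicates from their group means correlated at r = 0.129 to 0.247 in myogenesis, 0.125 to 0.174 in transduction and 0.165 to 0.247 in NET39 KD, every pair above 0.1. The r was -0.114 to 0.277 for TMEM38A KD, -0.0861 to 0.198 for WFS1 KD and -0.0468 to 0.36 for TMEM214 KD, where the numbers do not pair the arrays. Alternatives were the deposited values, an offset of 16, no background correction, median scaling, other filters, the mean of probes, a replicate block, array weights, the moderated F that the study's methods name, only the arrays compared, leaving out each array, and other reference groups.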

Additional observations from a re-analysis of the deposited data

How the results depend on the processing

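The counts of channel genes called were 12 in myogenesis, 7 in transduction, 7 in NET39 KD, 3 in TMEM38A KD, 4 in WFS1 KD and 6 in TMEM214 KD MTs. Leaving out 1 array gave 11 to 13 in myogenesis, 5 to 8 in transduction, 4 to 6 in NET39 KD, 3 to 4 in TMEM38A KD, 3 to 5 in WFS1 KD and 5 to 7 in TMEM214 KD MTs, and the NET39 count of 4 came without control shRNA replicate 2. With the deposited values the count was 2 in NET39 KD MTs and 4 in transduction. With no background correction it was 4 in NET39 KD MTs and 4 in transduction, and with the mean of a gene's probes likewise 4 and 4. An offset of 16 gave 12 in transduction and 6 in TMEM38A KD MTs. It also gave 18 in myogenesis, within 1.5 times the main count. Median scaling gave 13 in transduction, 5 in TMEM38A KD and 8 in WFS1 KD MTs. Its share of all called genes that were higher was 17.7% in myogenesis against 47.1%, 7.93% in TMEM38A KD against 42%, 9.15% in WFS1 KD against 50.5%, 66.6% in NET39 KD against 53% and 67.8% in TMEM214 KD MTs against 55.3%, and the median of all genes lay at -0.14 in TMEM38A KD and -0.15 in WFS1 KD MTs. With untransduced MTs as the reference 4 were called in NET39 KD, 8 in TMEM38A KD and 7 in WFS1 KD MTs. The replicate block left all 6 counts as they were (12, 7, 7, 3, 4 and 6).

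Over 39 pairs of a called gene and its comparison and all alternatives, 599 of 695 ratios kept their direction and their call, 88 kept the direction only and 8 changed sign. The sign changed with untransduced MTs as the reference for Cacna2d1 in NET39 KD (0.29) and TMEM214 KD (0.22) and for Cacnb1 in NET39 KD (0.41), TMEM38A KD (0.33) and TMEM214 KD MTs (0.03). It changed with median scaling for Cacng1 (0.80) and Scnm1 (0.23) in transduction, and with control shRNA MTs as the end point for Scnm1 in myogenesis (-0.06). Cacnb1, Cacng1, Kcnj12, Kcnc1, Scn10a and Kcnn4 in myogenesis, Cacnb1 in transduction, Kcnj12 in TMEM38A and WFS1 KD and Kcnc1 in WFS1 and TMEM214 KD MTs were called under every alternative run. No alternative used the unchanged second Cacnb1 probe by itself, so these runs do not settle the disagreement of the Cacnb1 probes. Cacng1, Kcnj12 and Kcnn4 have a single probe each, so the mean of probes could not change their ratios. The cause of the other differences was not tested. On normalized scanner values 13 genes exceeded 7.0, against 19 on the deposited scale, where dim values lie higher.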
